A study of Mus musculus with 12 samples.

Results

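Males and females of the same mutant genotype were compared in the urogenital sinus of mouse fetuses at E18.5, late gestation. The levels compared come from 6 of the 12 libraries of the series, 3 from mutant males and 3 from mutant females, and from autosomal genes only. All 6 carried the genotype Inv(Itga6-nsi)d11lac, which by its name joins an inversion between Itga6 and a point called nsi with an allele called d11lac. The labels do not describe either further. The other 6 libraries, 3 wild type males and 3 wild type females of the same age, carried neither. They entered the same fit, so they add to its estimate of the spread, and their own sex difference is set beside that of the mutants. The bladder was removed at dissection, the upper urethra stayed with the sinus, and in females the vagina stayed too, so the male and female samples differ in anatomy as well as in sex. The labels do not say whether replicates were separate embryos or pools, and the p-values below measure only the spread between these libraries.

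The urogenital sinus is the endodermal tube below the bladder. Under fetal androgen its mesenchyme induces the epithelium to bud, and the buds become the prostate. In females the sinus meets the fused Müllerian ducts and contributes to the vagina, whose epithelium becomes stratified. In males anti-Müllerian hormone removes the Müllerian ducts, while androgen keeps the Wolffian ducts, which form the epididymis, vas deferens and seminal vesicle.

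Levels are given as scaled FPKM, the deposited fragment values normalised to gene length and library total, divided by 1 factor per library that aligns the libraries on their shared genes. Differences are male minus female on the scale log2(scaled FPKM + 0.5), so a positive value is higher in males, and changes of low genes are understated. A gene was called at a Benjamini-Hochberg adjusted p under 0.05 in limma, a linear model fitted over all 13904 genes tested, of which 13422 were autosomal. The sex labels held: Xist, the RNA of the silenced X chromosome, was at 5.51 or more in every mutant female and did not exceed 0.0181 in any mutant male, and Ddx3y of the Y chromosome was at 8.08 or more in every mutant male and did not exceed 0.0722 in any mutant female. Relative sequencing depth ranged from 0.582 to 0.717 of the deepest library in the 6 mutant libraries. Libraries of mutant males were more alike (correlations of 0.971 to 0.983 over genes) than those of mutant females (0.95 to 0.966), and the median SD per gene was 0.119 and 0.186 on the log2 scale. Of markers of organs outside the dissection, 2 of 13 gonad and adrenal genes, 1 of 11 intestinal genes and 1 of 10 kidney genes passed the filter on low values, which needs 3 libraries. Most intestinal markers, though not Vil1 and Fabp1, stood out in mutant female 1. The lipoprotein genes Apoa1 and Apoa4 were at 18.1 and 19.9 there, Fabp2, Lgals4 and Tff3, of intestinal epithelium, at 3.7, 3.57 and 1.86, and the intestinal transcription factor gene Cdx2 at 0.101. In the other 5 mutant libraries Apoa1 was at most 3.87 and Apoa4, Fabp2, Lgals4 and Tff3 were each below 0.5. Vil1 was at 0.835 in mutant female 1 and at 0.838 and 0.877 in mutant males 1 and 2. Fabp1 was at 0.745 in mutant female 1, 0.686 in mutant female 3 and 0.71 in mutant male 3. The part of mutant female 1 in the results was not tested except by leaving it out. Without it the calls described below went from 1003 to 1147 autosomal genes. List counts without it are given below for some lists only. Of the others, Wolffian duct calls higher in males and in females went from 4 and 1 to 5 and 2. Those of secreted Wnt inhibitors went from 1 and 2 to 2 and 3, and those of Wnt response genes from 3 and 2 to 2 and 3. FGF calls higher in males went from 3 to 2.

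In mutants, 11 of 27 tested Müllerian duct genes and 10 of 27 genes of stratified epithelium were called higher in females. Higher in males were 7 of 20 androgen response genes and the retinaldehyde dehydrogenase genes Aldh1a1 and Aldh1a3, while Wnt pathway genes went both ways. Of the 13422 autosomal genes tested, 1003 were called (7.47%), 524 higher in males (3.9%) and 479 higher in females (3.57%). At least 2-fold differences were found for 131 of the first and 149 of the second. The largest called differences were Wnt7a on the female side, at a log2 difference of -4.31, and Aldh1a1 on the male side, at 3.50. All 524 genes called higher in males and 478 of the 479 called higher in females had mutant libraries that did not overlap between the sexes, beside 12.9% and 11.7% of all autosomal genes tested that separated in these directions. Calls and separation were read from the same libraries, so the separation is no independent support. Without mutant male 1, 2 or 3, the 1003 calls became 499, 475 and 413. With only the 6 mutant libraries fitted, 203 genes were called, 109 higher in males and 94 higher in females, and 37 of the 74 genes named by rule and called lost their call. Those lost include Dlx6, Msx1, Cdkl1, Elapor1, Gabrp, Pax8, Srd5a2, Cdh16, Gdnf, Etv4, Rspo2, Aspn and Ogn, and those kept include Wnt7a, Esr1, Amhr2, Krt6a, Krt13, Krt17, Wfdc2, Aldh1a1, Aldh1a3, Wnt16, Wif1, Rspo3, Fkbp5, Cnmd and Hoxb9. Scaled to the sum of FPKM instead, the calls were 1607 higher in males and 226 higher in females, and the median of all genes moved from 0.01 to 0.17.

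**Figure D1:**
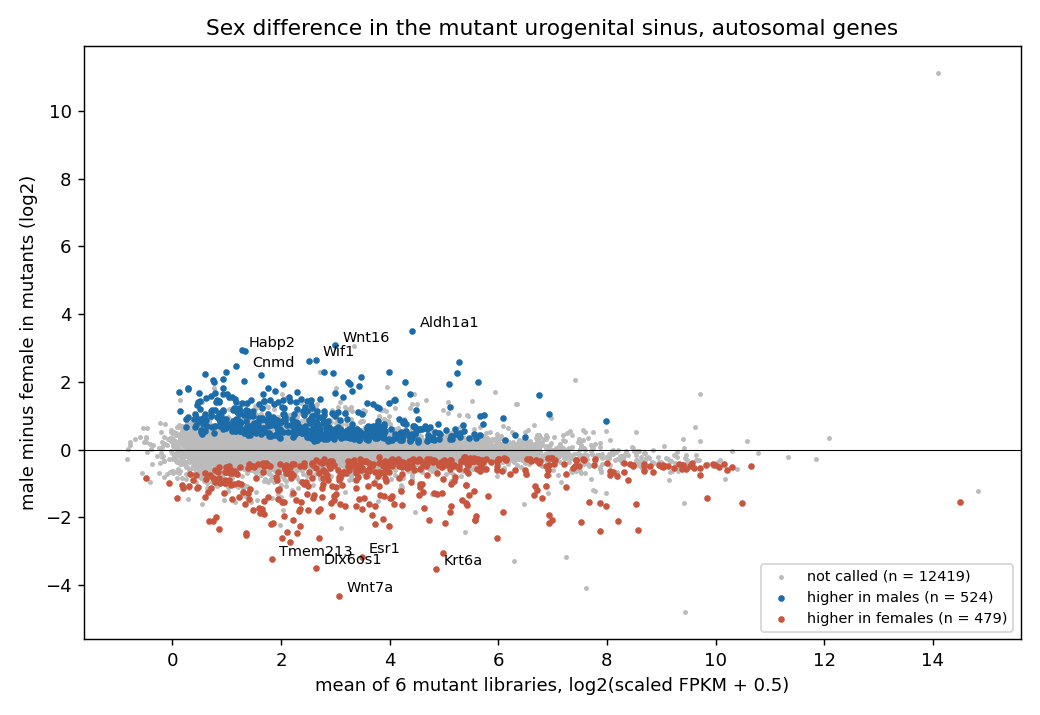
Log2 difference between mutant males and mutant females (vertical axis) against the mean level of the 6 mutant libraries (horizontal axis, log2) for each autosomal gene tested, with 1 point per gene. Blue points are the 524 genes called higher in males and red points the 479 called higher in females, and several of the largest called differences are written beside their points. The single grey point near 11 on the vertical axis is Rn7sk, a small nuclear RNA listed at 0 in mutant male 2 and all mutant females.

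Genes of the Müllerian duct and vagina included some of the largest female differences. Of 31 listed genes 27 passed the filter, and 11 of these were called higher in females and 2 higher in males, with a median of -0.23 over the 27 against 0.01 over all autosomal genes tested. The calls were 7 and 1 with only the 6 mutant libraries fitted, and 12 and 2 without mutant female 1. These samples are bulk tissue, so fewer cells of a type and less RNA per cell cannot be told apart, here or below. Wnt7a, the Wnt ligand of Müllerian epithelium, had levels of 22.7, 9.34 and 14.8 in mutant females 1, 2 and 3 and 0.454, 0.25 and 0.124 in mutant males. The lowest female library lay far above the highest male library, and the group means differed 56.5-fold. Its log2 difference was -4.31 (SE 0.26, limma adjusted p = 4.92e-06). Wnt7a (ENSMUSG00000030093) lies on chromosome 6 at 91340963 to 91388345 in mm39.

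Esr1, the estrogen receptor alpha gene (ENSMUSG00000019768, chromosome 10, 4561989 to 4955614), shared the smallest adjusted p with Cnmd, described below. It was at 19.1, 19.5 and 20.2 in mutant females and at 2.25, 1.2 and 1.91 in mutant males. The difference was -3.16 (SE 0.14, limma adjusted p = 4.72e-07), and the female libraries were nearly equal. Pgr, the progesterone receptor gene and a known estrogen target, was at 3.36, 2.18 and 2.41 in females and 0.666, 0.639 and 0.592 in males (-1.46, limma adjusted p = 0.00153). Amhr2 encodes the receptor through which anti-Müllerian hormone acts on the duct mesenchyme. It was at 5.87, 1.62 and 4.3 in mutant females and at 0.151, 0.13 and 0.345 in mutant males, a difference of -2.52 (SE 0.33, limma adjusted p = 0.00153).

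Homeobox genes made up much of the rest of this group. Dlx6 was at 14.2, 3.48 and 3.35 in mutant females and at 0.844, 0.653 and 0.413 in mutant males (-2.44, limma adjusted p = 0.00786), and its neighbour Dlx5 differed by -1.73 (adjusted p = 0.00755). The antisense RNA Dlx6os1, which overlaps Dlx6, was at 15.1, 8.58 and 9.48 against 0.854, 0.615 and 0.154 (-3.49, limma adjusted p = 5.73e-05). The libraries were strand-specific, but whether the counting used the strand is not given in the sources used here, so Dlx6 and Dlx6os1 may share reads. Msx2 and Msx1, homeobox genes regulated by BMP signals, were higher in females by 1.93 and 1.75 on the log2 scale, with Msx2 at 30, 12.9 and 16.9 in females and 4.94, 5.09 and 3.74 in males (limma adjusted p = 0.00114 and 0.00529). Runx1, a transcription factor gene, differed by -1.40 (limma adjusted p = 0.00138). Pax8, a marker of Müllerian epithelium that the Wolffian duct also expresses, differed by -1.33 (adjusted p = 0.0245), with values of -1.39 and -1.14 that were not called without mutant male 1 or 3 (adjusted p = 0.0564 and 0.0953).

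The Hox genes that pattern the female tract were not called: Hoxa9, Hoxa10, Hoxa11 and Hoxa13 had differences of 0.06, 0.08, -0.03 and 0.30 in mutants (limma adjusted p = 0.57 to 0.928). Higher in males on this list were Wnt9b, which the Wolffian duct expresses too, and Lgr5, a Wnt receptor component, at 0.41 (limma adjusted p = 0.0364). The call of Lgr5 was lost in 5 of the 6 fits that left out 1 mutant library, all but the one without mutant female 3 (adjusted p of up to 0.118). Pgr, Runx1, Dlx5, Lgr5 and the Hox genes of this paragraph are named after their values were seen. In wild type, 9 of the 27 genes were called higher in females and 1 higher in males (1.21% and 1.9% of all autosomal genes tested).

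Stratified epithelial genes were called in 1 direction. Of 33 listed basal and squamous genes 27 passed the filter, 10 were called higher in females and 0 higher in males, with a median of -0.61. Krt6a, a keratin of stratified epithelium, was at 88.6, 28.3 and 41.9 in mutant females and at 3.79, 5.75 and 2.2 in mutant males (-3.52, SE 0.45, limma adjusted p = 0.00138). Its close copy Krt6b did not pass the filter, and reads could be split between the 2. Krt13, a keratin of internal stratified linings such as the vagina, was at 106, 25.3 and 38.6 against 4.94, 8.26 and 3.47 (-3.05, SE 0.55, limma adjusted p = 0.00914). Krt17 was at 191, 56 and 81.6 against 19.5, 15.9 and 11.5 (-2.61, limma adjusted p = 0.00262). Mutant female 1 was the highest library for all 3 keratins, and the female and male libraries did not overlap for any of them. Dsc3, a desmosomal cadherin gene, did not follow that order: it was at 4.65, 8.37 and 8.92 in mutant females and at 0.716, 0.779 and 0.482 in mutant males (-2.71, limma adjusted p = 3.21e-05).

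General basal cell genes moved less than these. Krt5 was at 138, 72.1 and 140 in mutant females and 80.4, 70 and 52.2 in mutant males (-0.74, limma adjusted p = 0.162), and Trp63, the master regulator gene of basal epithelium, had a value of -0.20 (adjusted p = 0.541); both are named after their values were seen. The summed level of the 27 genes was 1098 to 2196 in mutant females and 807 to 1075 in mutant males, with the highest sum in mutant female 1. Genes of simple epithelium were also most abundant there: their 19 members summed to 1727 in mutant female 1, 845 and 970 in the other mutant females and 668 to 958 in mutant males, with 0 of 19 called by limma, 3 called higher in females without mutant female 2, and a median of -0.38. The part of epithelial content in these differences was not tested. Without mutant female 1 the basal count was 7 higher in females and 1 higher in males, it was 4 without mutant male 2, without mutant male 3 or with only the 6 mutant libraries fitted, and Krt6a, Krt13, Krt17 and Dsc3 stayed called without any 1 of the 6 mutant libraries.

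Among the other genes with the largest female values, Wfdc2, a secreted protease inhibitor gene of reproductive tract epithelium, had the highest level. It was at 698, 249 and 249 in mutant females and at 73.2, 77.8 and 49.5 in mutant males (-2.41, limma adjusted p = 0.00274). Tmem213, a membrane protein gene, was at 5.44, 6.42 and 5.86 against 0.342, 0.239 and 0 (-3.24, limma adjusted p = 9.71e-05). Sox17, a transcription factor gene on the endothelial list that Müllerian derivatives also express, was at 31.9, 16.7 and 21.5 against 4.26, 5.83 and 5.15 (-2.05, limma adjusted p = 0.000584). It was the 1 member called of 16 endothelial genes. Cdkl1, a kinase gene, Elapor1, an estrogen-induced gene, and Cstdc5, of a family of close cystatin copies that could share reads, differed by -2.25, -2.19 and -2.60 (limma adjusted p = 0.00665, 0.00814 and 0.0109). Gabrp, a GABA receptor subunit gene, was spread from 1.48 to 15.8 in mutant females. Its difference of -2.60 (limma adjusted p = 0.0297) was not called without mutant male 1, 2 or 3 (-2.57, -2.64 and -2.58, adjusted p = 0.0801, 0.0718 and 0.0923).

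**Figure D2:**
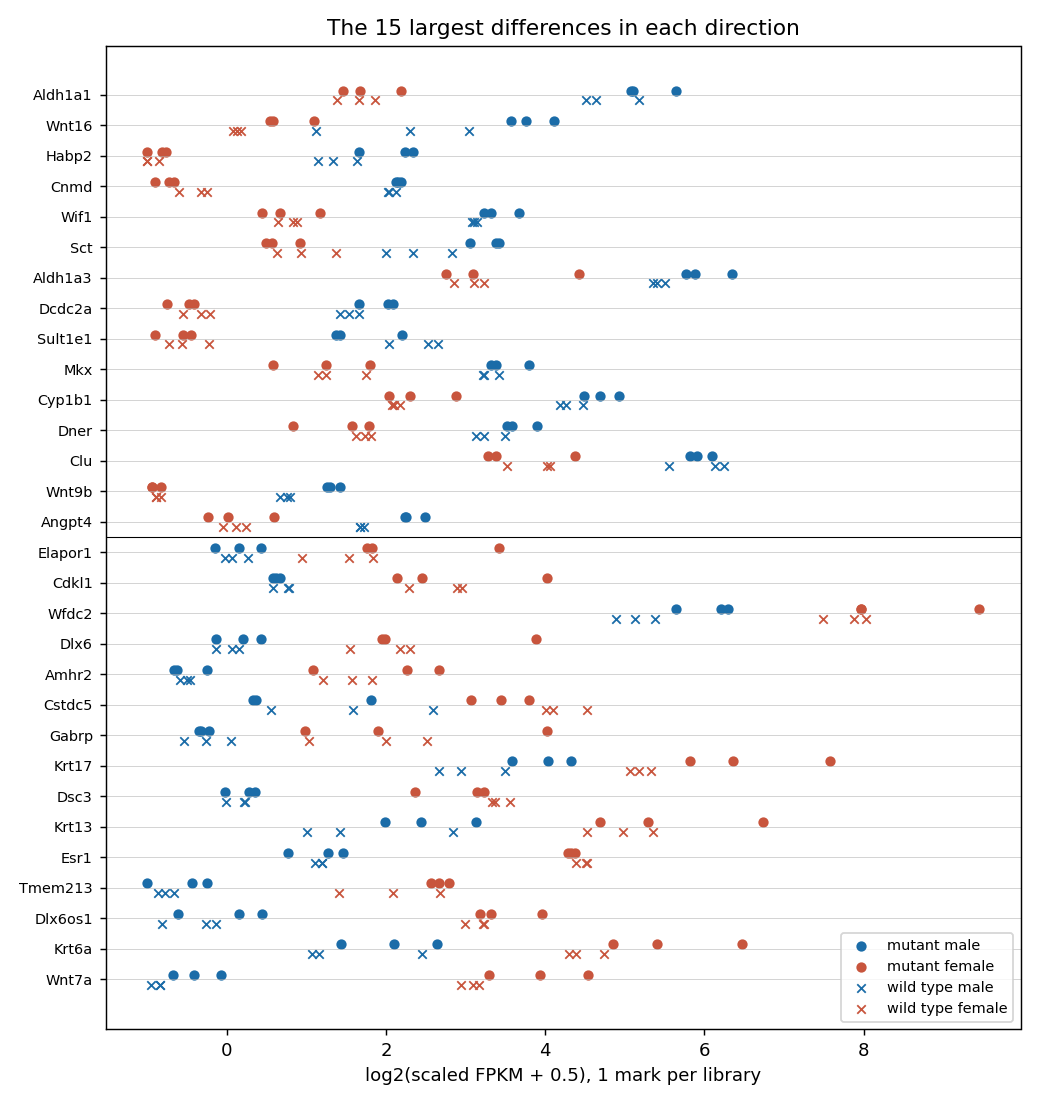
Level of the 15 genes with the largest called difference in each direction, as log2(scaled FPKM + 0.5) on the horizontal axis, with 1 mark per library; blue marks are males, red marks females, circles mutants and crosses wild type. In every row the 3 mutant males and the 3 mutant females stand apart, which was a condition for choosing these genes. The wild type crosses lie on the same side for each gene.

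A minority of androgen response genes were called, all higher in mutant males. Of 21 listed genes 20 passed the filter, 7 were called higher in males and 0 higher in females, and 14 of the 20 had a positive difference (median 0.22). Fkbp5, a chaperone gene of steroid receptor complexes and a textbook androgen target (ENSMUSG00000024222, chromosome 17, 28618068 to 28736498), was at 27.6, 32.3 and 31.6 in mutant males and at 7.73, 6.71 and 7.46 in mutant females. The difference was 1.99 (SE 0.10, limma adjusted p = 1.42e-06), and the spread within each sex was small beside it. Zbtb16, a zinc finger gene induced by several steroids, was at 3.44, 3.64 and 4.45 against 1.74, 1.04 and 0.884 (1.36, limma adjusted p = 0.00723).

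Srd5a2, the enzyme gene that converts testosterone to the more potent dihydrotestosterone, was at 13.9, 17.8 and 15.9 in males and at 1.51, 4.31 and 8.69 in females (1.87, SE 0.40, limma adjusted p = 0.0195). The female libraries differed several-fold among themselves, and the call was lost without mutant male 2 or 3 (1.79 and 1.86, adjusted p = 0.063 and 0.0672). Hpgd, which inactivates prostaglandins, was higher in males by 0.82 (limma adjusted p = 0.00206). Klf9 and Errfi1 were also among the 7, at 0.70 and 0.69 (limma adjusted p = 0.0433 and 0.0174), and these 3 are named after their values were seen. Klf9 was called in only 1 of the 6 fits that left out 1 mutant library, the one without mutant female 3 (adjusted p of up to 0.153), and Errfi1 was not called without mutant male 2 or 3 (0.67 and 0.66, adjusted p = 0.0572 and 0.0679). Pmepa1, Tmprss2 and Ndrg1, also known as androgen-responsive in the prostate, had values of -0.06, 0.20 and -0.39 and missed the threshold, with limma adjusted p from 0.378 to 0.785. These 3 too are named after their values were seen. The count of 7 was 4 without mutant male 2 or without mutant male 3.

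Genes of prostate bud formation leaned the same way. Of 28 that passed the filter 8 were called higher in males and 1 higher in females, and 23 of the 28 had a positive difference (median 0.32). Wif1, a secreted Wnt inhibitor of the male mesenchyme, was at 8.9, 12.2 and 9.52 in mutant males and at 0.861, 1.09 and 1.76 in mutant females (2.64, SE 0.17, limma adjusted p = 9.14e-06). Rspo3, a secreted enhancer of Wnt signalling, was at 14.8, 13.2 and 15.5 against 2.77, 3.44 and 3.52 (2.01, SE 0.12, limma adjusted p = 6e-06). Etv4, a transcription factor gene downstream of FGF signals, was at 8.09, 6.23 and 6.26 against 4.24, 3.28 and 3.82 (0.78, limma adjusted p = 0.00618). For these 3 genes, as for nearly all called genes, no male library overlapped a female one, and their calls held without any 1 mutant library.

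Other bud genes were less secure. Fgf10, the mesenchymal growth factor that drives budding, was at 3.42, 3.55 and 4.28 in males and 1.68, 2.7 and 1.67 in females (0.78, limma adjusted p = 0.036). Its call was lost in the fits without mutant female 1, mutant female 3 or any 1 mutant male (0.68, 0.68, 0.83, 0.81 and 0.69, adjusted p of up to 0.127). Sox9, needed for bud outgrowth, differed by 0.67 (limma adjusted p = 0.0246) and was not called without mutant male 1, 2 or 3 (0.68, 0.62 and 0.71, adjusted p of up to 0.0763). The 1 bud gene higher in females was Foxa2, at -1.41 (limma adjusted p = 0.0129). Shh, the hedgehog ligand of the sinus epithelium, had a value of 0.65 and Foxa1 one of 0.53, and neither was called (limma adjusted p = 0.101 and 0.0664). The list's count of 8 higher in males was 5 without mutant male 1 and 4 without mutant male 2, without mutant male 3 or with only the 6 mutant libraries fitted. Foxa2, Foxa1 and Shh are named after their values were seen.

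Hedgehog target genes followed in part. Of 14 hedgehog genes tested 3 were called higher in males and 0 higher in females. Among them the inhibitor Hhip was at 6.81, 6.04 and 7.94 in males and 1.06, 4.1 and 3.62 in females, and the transcription factor gene Gli1 at 8.87, 6.79 and 7.96 and 2.44, 3.55 and 6.22. These targets of the pathway differed by 1.26 and 0.95 (limma adjusted p = 0.0411 and 0.0337). Hhip was not called without mutant male 1, 2 or 3 (adjusted p of up to 0.136), and Gli1 kept its call only without mutant female 3 (adjusted p of up to 0.102). The count of 3 was 5 without mutant female 3, 2 without mutant female 1 or 2, 1 without mutant male 2 or 3 and 0 without mutant male 1 or with only the 6 mutant libraries fitted, and without mutant female 1 or mutant male 3 there was 1 gene called higher in females. The ligand Fgf10 and the targets Etv4 and Dusp6 were the 3 of 16 FGF genes called, all higher in males, with Dusp6 at 0.46 (limma adjusted p = 0.0122) and at 0.41 without mutant male 2 (adjusted p = 0.0505), where 1 of the 16 was called. With only the 6 mutant libraries fitted, 0 of the 16 were called.

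Wnt ligands split between the sexes. Of 13 ligands tested, Wnt16 and Wnt9b were higher in mutant males and Wnt7a and Wnt5b higher in mutant females. Wnt16 was at 11.4, 16.8 and 13 in males and at 1.64, 0.953 and 0.997 in females (3.07, SE 0.37, limma adjusted p = 0.00094). Wnt9b, the ligand of the Wolffian duct epithelium, was at 2.18, 1.9 and 1.96 in males and at 0.0203, 0.0201 and 0.063 in females (2.23, SE 0.14, limma adjusted p = 5.36e-06). Wnt5b, a ligand of the non-canonical branch, was at 6.98, 5.66 and 6.27 in males and 10.1, 9.53 and 11.2 in females (-0.66, limma adjusted p = 0.00618). All 4 separated the sexes without overlap, as nearly all called genes did. Without mutant female 1, 4 ligands were called in each direction.

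Modifiers of Wnt signalling split as well. Rspo2 was higher in females by 0.99 on the log2 scale (limma adjusted p = 0.0126), opposite in direction to its relative Rspo3. Of the 11 secreted inhibitors tested, Wif1 was higher in males and Notum and Dkk2 higher in females, at -0.58 and -1 (limma adjusted p = 0.0129 and 0.0313). Dkk2 was at 17.9, 35.5 and 44.1 in mutant females and at 15.2, 15.8 and 13.9 in mutant males, and its call was lost in 5 of the 6 fits that left out 1 mutant library, all but the one without mutant female 1 (-0.74 to -1.04, adjusted p of up to 0.106), which left 1 inhibitor called higher in females in each of those, and 0 were called higher in females with only the 6 mutant libraries fitted. The general Wnt targets Axin2 and Lef1 had values of -0.34 and -0.10 and were not called (limma adjusted p = 0.309 and 0.847, named after their values were seen), while Nkd2, an inhibitor induced by the pathway, differed by -0.66 and the target Sp5 by 1.17 (adjusted p = 0.00964 and 0.0107). Of the 14 genes of Wnt response and R-spondins 3 were called higher in males and 2 higher in females, and 1 and 0 with only the 6 mutant libraries fitted.

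Wolffian duct genes included 4 of 11 called higher in males and 1 higher in females. Besides Wnt9b these were Cdh16, a cadherin gene of Wolffian and renal epithelium, Gdnf, the growth factor of the ureteric bud, and Gata3, a transcription factor gene of the duct and of urothelium. Cdh16 was at 32.5, 33.1 and 25.4 in mutant males and at 17.4, 7.06 and 6.61 in mutant females (1.63, limma adjusted p = 0.00971). Gata3 was at 18.1, 17.4 and 15.8 against 8.15, 9.87 and 10.1 (0.84, limma adjusted p = 0.00152). Pax8 was the one higher in females. With only the 6 mutant libraries fitted, 2 of the 11 were called. Clu, a secreted chaperone gene of epithelia that was not on this list, was at 68, 56.1 and 59.3 in males against 20.2, 9.93 and 9.23 in females (2.26, limma adjusted p = 0.00094).

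The largest male difference belonged to retinoid synthesis. Aldh1a1, a retinaldehyde dehydrogenase gene (chromosome 19, 20470079 to 20620829), was at 33.4, 49.3 and 33.8 in mutant males and at 2.26, 2.69 and 4.05 in mutant females (3.50, SE 0.23, limma adjusted p = 9.14e-06). Its relative Aldh1a3 was at 53.9, 80.9 and 58.6 in mutant males and 6.23, 8.01 and 20.9 in mutant females, with mutant female 3 well above the other 2, and differed by 2.58 (SE 0.33, limma adjusted p = 0.0014). Sult1e1, which inactivates estrogens by sulfation, was at 2.09, 2.19 and 4.11 in males and 0.0368, 0.183 and 0.229 in females (2.3, limma adjusted p = 0.000479). Cyp1b1, an enzyme gene of estrogen and retinoid metabolism, was at 22, 30 and 25.2 against 3.59, 4.43 and 6.88 (2.3, limma adjusted p = 5.73e-05). Sult1e1 and Srd5a2 were the 2 genes higher in males among 10 tested steroid and anti-Müllerian hormone receptors and enzymes, against 5 higher in females, of which 3 were called without mutant male 1 or with only the 6 mutant libraries fitted.

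The rest of the 15 largest male differences did not belong to 1 programme. Cnmd, the angiogenesis inhibitor chondromodulin of cartilage and tendon (chromosome 14, 79875130 to 79899610), was at 4.04, 3.94 and 3.87 in males and 0.0336, 0.134 and 0.104 in females (2.92, SE 0.13, limma adjusted p = 4.72e-07). It separated the sexes by 43.6-fold in the means, with males almost equal. Of the 9 tested cartilage and bone genes Cnmd, Sox9 and the collagen gene Col9a3 were called higher in males, and Col9a3, at 0.62 (limma adjusted p = 0.0244), was not called without mutant female 3, mutant male 1 or mutant male 3 (0.51, 0.55 and 0.63, adjusted p = 0.0583, 0.0836 and 0.0712). The cartilage collagen gene Col2a1, named after its values were seen, stood at 0.749 to 4.16 in the mutant libraries and was not called (0.91, limma adjusted p = 0.104). Habp2, a serine protease gene, was at 4.54, 4.21 and 2.66 against 0, 0.0688 and 0.0897 (2.94, limma adjusted p = 9.59e-06). Sct, the secretin hormone gene, was at 9.95, 10.2 and 7.81 against 0.903, 0.988 and 1.39 (2.63, limma adjusted p = 0.000105). Mkx, a tendon homeobox gene, Dner, a Notch ligand gene, Dcdc2a, a doublecortin family gene, and Angpt4, an angiopoietin gene, differed by 2.3, 2.27, 2.47 and 2.2 (limma adjusted p = 9.14e-06 to 0.000693).

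Promoter sequences of 3 genes on which these groups turn are shown, for the 250 bases before the annotated start, from RefSeq on GRCm38.p6, another build than the positions above. The 3 genes are the female gene Wnt7a (chr6:91411354-91411603, minus strand), the male gene Cnmd (chr14:79662184-79662433, minus strand) and the androgen target Fkbp5 (chr17:28486150-28486399, minus strand), each 5′ to 3′ on its own strand, with capitals for the steroid response motif AGAACA where it was found on either strand.
Wnt7a: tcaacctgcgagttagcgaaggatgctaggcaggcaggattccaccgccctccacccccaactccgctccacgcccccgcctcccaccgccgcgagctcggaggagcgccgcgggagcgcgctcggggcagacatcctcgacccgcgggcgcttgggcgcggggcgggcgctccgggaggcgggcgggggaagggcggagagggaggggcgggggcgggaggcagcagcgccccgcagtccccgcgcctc
Cnmd: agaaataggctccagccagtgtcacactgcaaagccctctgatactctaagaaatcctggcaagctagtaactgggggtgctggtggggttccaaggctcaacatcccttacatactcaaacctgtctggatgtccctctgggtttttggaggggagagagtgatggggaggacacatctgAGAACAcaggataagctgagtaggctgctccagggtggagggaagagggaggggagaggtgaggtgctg
Fkbp5: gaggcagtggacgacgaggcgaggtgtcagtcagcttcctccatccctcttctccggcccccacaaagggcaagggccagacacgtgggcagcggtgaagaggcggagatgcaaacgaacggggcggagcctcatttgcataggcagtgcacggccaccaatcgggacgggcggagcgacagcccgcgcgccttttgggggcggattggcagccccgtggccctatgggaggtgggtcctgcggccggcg

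The Wnt7a window was 77.6% G and C, that of Fkbp5 68% and that of Cnmd 54%. AGAACA, read on both strands, was in the window of Cnmd and not in those of Wnt7a and Fkbp5, nor in that of Tmem213, which was also picked and is not shown. It was found for 12.4% of 10169 tested genes, 12.2% of 393 genes called higher in males and 13.8% of 320 called higher in females. A gene with several starts was counted if any of its windows held the letters. The full inverted repeat of these letters, with 3 bases between its arms, was found for 1 of the 10169 genes and for 0 of either called group. The TATA box letters TATAAA were found for 8.08% of all these genes, 12.2% of those higher in males and 10% of those higher in females. These are counts of letters in a short window, and sites farther away were not searched.

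**Figure D3:**
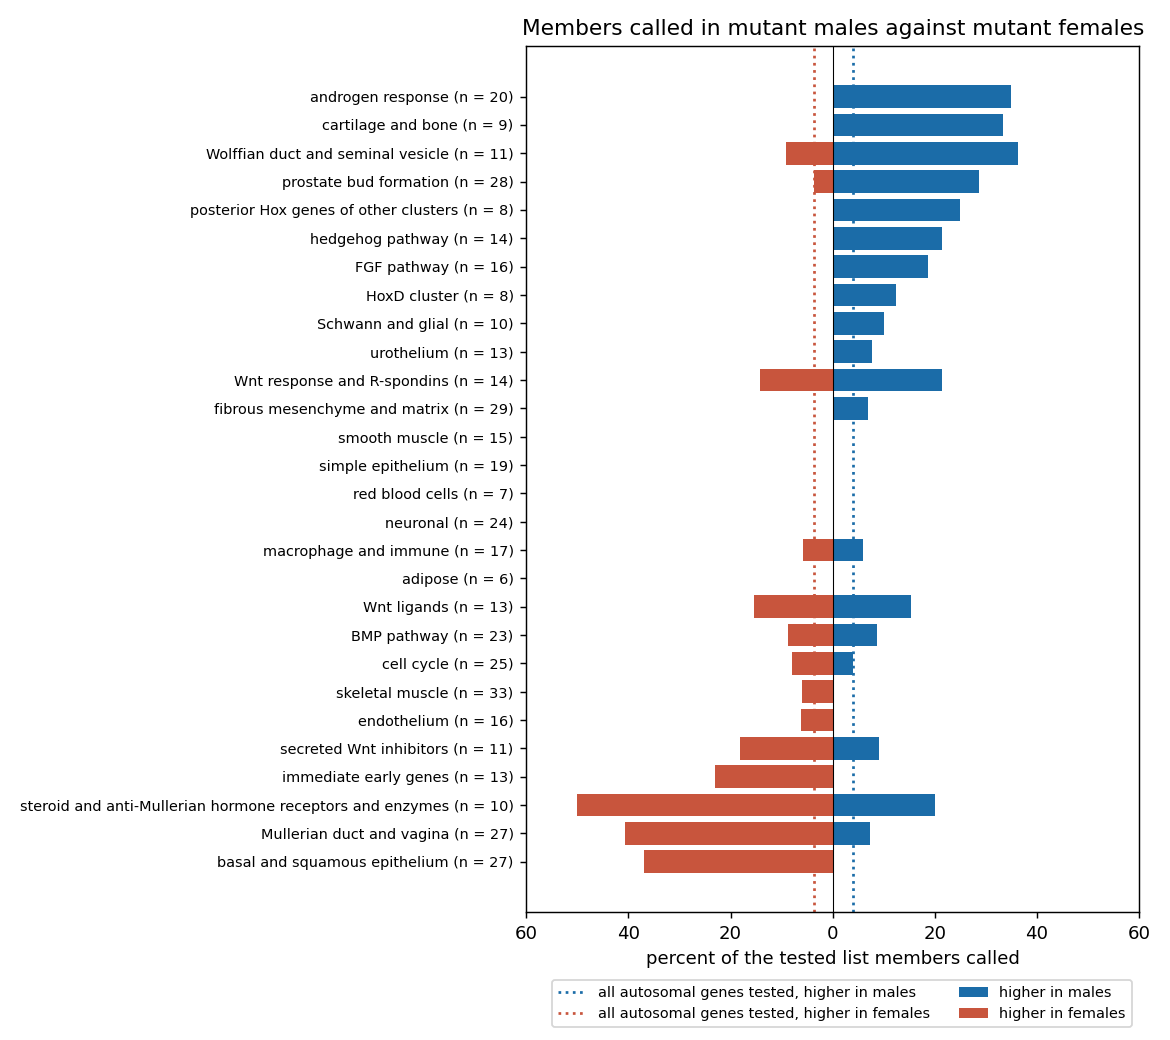
Share of the tested members of each gene list called in mutants, with genes higher in males to the right in blue and genes higher in females to the left in red, in percent; n is the number of members tested, and lists with fewer than 6 are left out. Dotted lines mark the shares among all autosomal genes tested, 3.9% higher in males and 3.57% higher in females. Most plotted lists are so short that any call in them exceeds these shares. Passing a line therefore does not by itself show enrichment. The largest shares are on the female side those of the steroid and anti-Müllerian hormone list (5 of 10), the Müllerian list (11 of 27) and the basal list (10 of 27), and on the male side those of the Wolffian (4 of 11), androgen (7 of 20) and cartilage (3 of 9) lists.

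The HoxD cluster, which lies on the same chromosome as Itga6 and patterns the hind end of the body and the genitalia, gave 1 call between the mutant sexes. Hoxd13 was at 4.02, 4.06 and 6.23 in mutant males and at 3.15, 4.71 and 5.64 in mutant females, a difference of 0.08 (SE 0.20, limma adjusted p = 0.834). Hoxd12 was at 1.68, 1.95 and 1.26 against 1.5, 1.49 and 3.03 (-0.19, SE 0.22, limma adjusted p = 0.623). Hoxd11 had a value of -0.03 and Hoxd10 one of 0.38, neither called (limma adjusted p = 0.949 and 0.13). Of the 8 HoxD list genes tested 1 was called, Hoxd8, at 5.84, 6.76 and 6.43 in males and 5.32, 3.91 and 4.09 in females (0.48, SE 0.11, limma adjusted p = 0.0307). Without mutant female 1, 2 of the 8 were called, and 0 with only the 6 mutant libraries fitted. Hoxd8 was not called in 5 of the 6 fits that left out 1 mutant library, all but the one without mutant female 1 (0.40 to 0.53, adjusted p of up to 0.0941). Hoxd9, Hoxd4 and Evx2 had values of 0.55, 0.49 and 0.04 (limma adjusted p = 0.0854, 0.177 and 0.938).

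Among 8 posterior Hox genes of the other clusters, Hoxb9 was at 6.11, 7.08 and 4.73 in mutant males and at 1.57, 0.923 and 1.09 in mutant females (1.93, SE 0.23, limma adjusted p = 0.000929). Hoxc10 differed by 0.63 (limma adjusted p = 0.0496), and its call was lost in 5 of the 6 fits that left out 1 mutant library, all but the one without mutant female 2 (0.46 to 0.74, adjusted p of up to 0.167). Hoxb13, the prostate Hox gene, had a value of 0.08 (limma adjusted p = 0.886, named after its value was seen).

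Neuronal genes had the largest median of the lists with at least 6 tested members. All 24 tested members had a positive difference, with a median of 1.03, yet 0 were called by limma beside 7.47% of all autosomal genes. Mutant female 3 set them apart: the 24 genes summed to 114 there, to 450 and 735 in mutant females 1 and 2 and to 583 to 760 in mutant males. Prph, the neuronal intermediate filament gene peripherin, was at 6.18 in mutant female 3, at 69.3 and 116 in the other mutant females and at 76.6 to 116 in mutant males (1.33, limma adjusted p = 0.31). Without mutant female 3 the median was 0.20 with 2 genes called, and without mutant female 2 it was 1.57 with 12 called, all higher in males. In wild type the 24 genes summed to 837 to 938 in males and 546 to 676 in females, with a median of 0.57 and 0 called. Prph was named after its values were seen. Of 10 Schwann and glial genes 1 was called, the nerve growth factor receptor gene Ngfr, at 0.85 (limma adjusted p = 0.0351), and only the fit without mutant female 2 kept that call among those leaving out 1 mutant library (adjusted p of up to 0.0971).

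**Figure D4:**
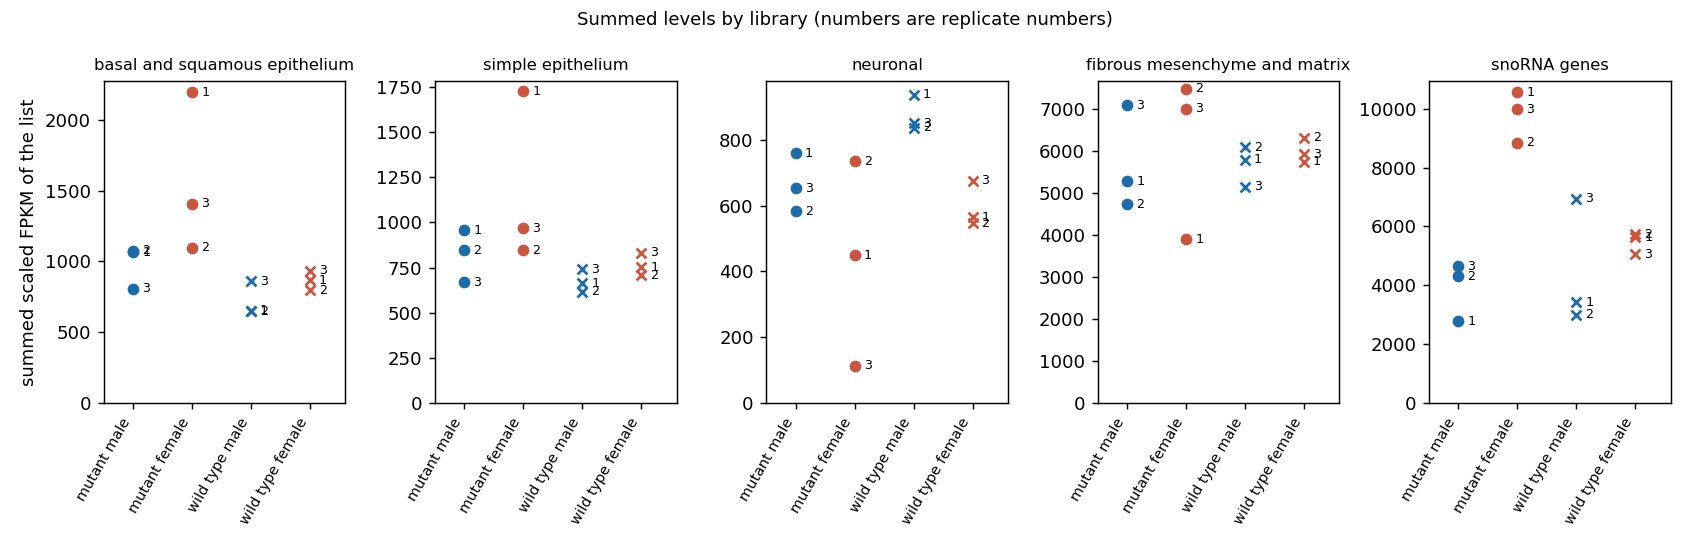
Summed scaled FPKM of 4 gene lists and of all small nucleolar RNA (snoRNA) genes, tested or not, in each of the 12 libraries. Groups are on the horizontal axis, with circles for mutants, crosses for wild type and the replicate number beside each mark. Mutant female 1 stands highest for both epithelial lists, mutant female 3 lowest for neuronal genes, and the 3 mutant females hold the highest snoRNA sums.

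Few muscle genes were called between the mutant sexes. Of 33 tested skeletal muscle genes 2 were called, both higher in females: the oxygen-binding gene Mb at -1.05 and the muscle creatine kinase gene Ckm at -0.91 (limma adjusted p = 0.0301 and 0.0382), beside 3.57% of all genes. Ckm was at 10.7, 9.76 and 9.33 in mutant males and 18.1, 25.1 and 15.3 in mutant females. Among contractile genes Acta1 was at 0.03 and Tnnt3 at 0.30, neither called (limma adjusted p = 0.936 and 0.419, named after their values were seen). Without mutant female 1, mutant male 1 or mutant male 3 neither Mb nor Ckm was called (adjusted p of up to 0.12), and 1 of the 2 was lost without any other 1 of the mutant libraries. In the wild type 8 of the 33 were called higher in males and 0 higher in females. Of 15 smooth muscle genes 0 were called in mutants by limma.

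Smaller groups gave at most 4 calls each, beside 3.9% higher in males and 3.57% higher in females of all autosomal genes tested. The immediate early list lay above the female share, the matrix list above the male share, and the BMP and macrophage lists above both. In lists this short 1 or 2 calls are enough for that. With only the 6 mutant libraries fitted 0 were called among the muscle, glial, immediate early, macrophage, matrix and cell cycle lists. Of 13 immediate early genes, which respond within minutes to stimulation, Fos, Junb and Klf4 were higher in females, at -1.06, -0.85 and -0.60 (limma adjusted p = 0.041, 0.0215 and 0.048), and 0 of the 13 were called without mutant male 3 and 1 without mutant female 2 or mutant male 1. Klf4 kept its call only without mutant female 3, and Fos only without mutant female 1 or mutant male 2. Of 17 macrophage and immune genes the complement gene C1qa was higher in females (-0.95, limma adjusted p = 0.0109) and the growth factor receptor gene Kit higher in males (0.78, adjusted p = 0.013; 0.72 and adjusted p = 0.0521 without mutant male 2), while without mutant female 3 or 1 there were 4 and 2 higher in females. Of 29 matrix genes the small proteoglycan genes Aspn and Ogn were higher in males, Ogn at 35, 42.8 and 68 against 13.6, 21.2 and 24.3 (1.26, limma adjusted p = 0.0105), and without mutant female 1 another 6 of the 29 were called higher in females. Bmper, a modulator of BMP signals, was higher in males by 1.22 (limma adjusted p = 0.00146), and with Bmpr1b, Msx1 and Msx2 it made up the 4 called of 23 BMP genes. The receptor gene Bmpr1b, at 0.45 (limma adjusted p = 0.036), kept its call only without mutant female 1 among the fits leaving out 1 mutant library (adjusted p of up to 0.114). Red cell genes ranged widely within both sexes, with the haemoglobin gene Hbb-bs at 1617 to 7240 in mutant females and 2477 to 6867 in mutant males, and 0 of 7 called by limma. Hbb-bs has a near-identical copy that could share its reads, and it is named after its values were seen.

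The sex difference was next set beside that of the wild type libraries, which share no library with the mutants. In wild type 418 autosomal genes were called (3.11%), 255 higher in males and 163 higher in females. With the 6 libraries of each genotype fitted alone the order was reversed, at 203 genes called in mutants and 1180 in wild type. The counts and shares below are those of the joint fit of all 12 libraries, so they do not show which genotype has the wider sex difference. Of the 524 genes higher in mutant males 172 were also called higher in wild type males, which is 32.8% of the mutant calls and 67.5% of the wild type calls. Of the 479 higher in mutant females 98 were also called in wild type, 20.5% of the mutant and 60.1% of the wild type calls. Across all autosomal genes the correlation of the 2 differences was 0.58 (Pearson) and 0.45 (Spearman), over genes that are not independent replicates.

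The leading genes differed in the same direction in wild type. Esr1 differed by -3.16 in mutants and -3.31 in wild type, Wnt7a by -4.31 and -3.94, Aldh1a1 by 3.50 and 3.14, Wnt16 by 3.07 and 2.03, Elapor1 by -2.19 and -1.34, and Fkbp5 by 1.99 and 1.34. The test of the difference between the 2 sex differences called 0 autosomal genes by limma, with a smallest adjusted p of 0.0908, and 1166 genes (8.69%) had an unadjusted p under 0.05. For Fkbp5 the difference was 0.65 (SE 0.14, limma adjusted p = 0.538). That difference was several times its SE, but it was not called after the adjustment over all 13904 genes tested.

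The 5 genes with the smallest p in that test were C1s1, Bod1l, Mstn, Mki67 and Bptf. C1s1, a complement protease gene, was at 2.34, 3.5 and 2.2 in mutant males and 2.79, 3.06 and 2.89 in mutant females (-0.12, limma adjusted p = 0.841). In wild type it was at 8.58, 4.45 and 2.5 in males and at 0, 0 and 0.0114 in females, so the wild type females stood apart from the other 9 libraries. The difference was -3.47 (SE 0.44, limma adjusted p = 0.0908), and it was called without wild type male 1 or 3 (adjusted p = 0.0167 and 0.00385). Mstn, the muscle growth inhibitor myostatin, was at 1.57, 2.58 and 1.31 in mutant males and 2.62, 2.3 and 2.61 in mutant females, against 3.35, 5.84 and 5.68 and 1.44, 1.43 and 1.42 in wild type (-1.88, limma adjusted p = 0.295).

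Mki67, the proliferation marker gene, was the 1 gene called in opposite directions in the 2 genotypes. It was at 41.2, 45.9 and 44.1 in mutant males and 36.7, 32.8 and 32.1 in mutant females (0.37, limma adjusted p = 0.028), and at 38.2, 36 and 32.5 in wild type males and 49.6, 43.7 and 43.7 in wild type females (-0.36, adjusted p = 0.0489). The difference of 0.72 was not called (limma adjusted p = 0.295), and the mutant call was lost without mutant female 2 or 3 or mutant male 2 or 3 (adjusted p of up to 0.0872). The rest of the cell cycle list did not go with it: of 25 genes Plk1 and Bub1b were higher in mutant females, at -0.34 and -0.30 (limma adjusted p = 0.0346 and 0.046), and 22 were not called. Among all autosomal genes tested 3.9% were called higher in males and 3.57% higher in females. Plk1 was called only without mutant female 2 and Bub1b only without mutant male 2 among the fits that left out 1 mutant library (adjusted p of up to 0.107 and 0.146). Bod1l and Bptf, large chromatin genes, had mutant differences of 0.36 and 0.31 and wild type differences of -0.21 and -0.22.

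**Figure D5:**
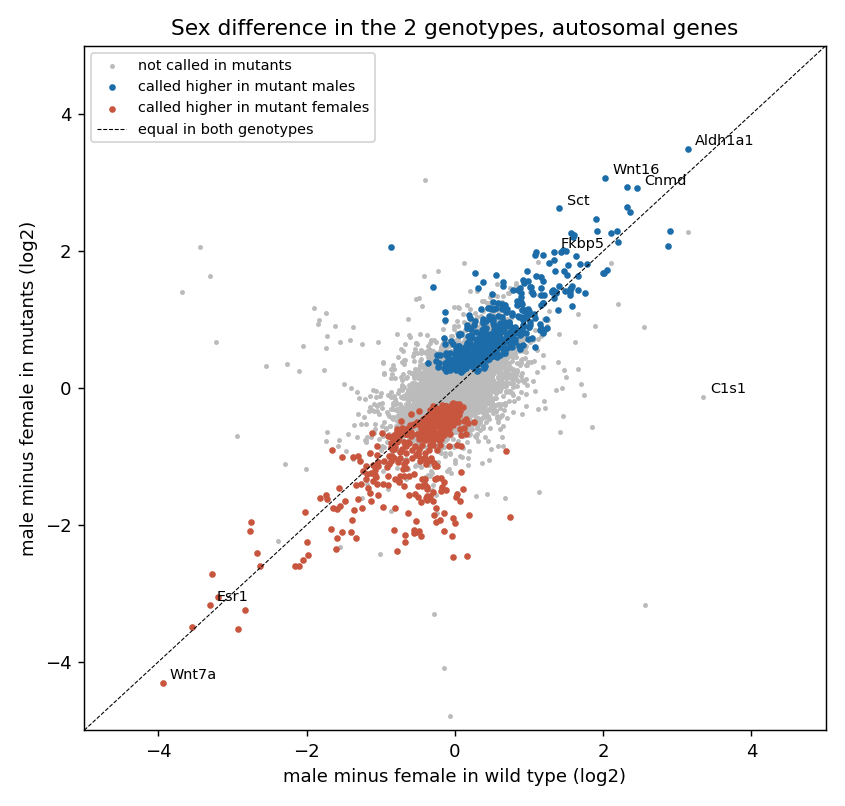
Male minus female log2 difference in mutants (vertical axis) against that in wild type (horizontal axis), 1 point per autosomal gene, with genes called higher in mutant males in blue and in mutant females in red. Esr1, Wnt7a, Aldh1a1 and Cnmd lie near the dashed line of equal differences, C1s1 lies far off it, and Rn7sk falls outside the axes.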

How the data were processed

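RNA was sequenced as strand-specific single-end libraries after removal of ribosomal RNA, per the labels' protocols. The deposited values are FPKM for 56495 genes, 1 column per library, per the file headers. The submitters' processing notes name cutadapt 4.1, STAR 2.7.10a, Cufflinks 2.2.1, bedtools 2.30.0, mm39 and mm10, with no roles. Only 2.84% of genes shared an end with GRCm38, so positions are given as mm39, with starts raised by 1 to count from 1. FPKM give no read totals, so depth is relative, read from the steps of low values, and no counting interval was computed.

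Libraries were scaled by median ratio over 11897 genes (divisors 0.748 to 1.13). The filter asked for 1 FPKM or more in 3 or more libraries and the pseudocount was 0.5, which left 476 X-linked, 5 Y-linked and 1 unplaced gene besides the autosomal ones. Limma 3.58.1 (R 4.3.3, intensity trend) fitted 4 group means over the 12 libraries and was tested on simulated data.

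Named genes are the 15 largest called differences per direction with non-overlapping libraries and a mean of at least 2, up to 4 called members per list, the 5 smallest p between genotypes and the HoxD genes. Unnamed models, pseudogenes and small RNAs were left out. The members and lists were chosen with earlier results of these data known. Of the lists not described in the text, adipose tissue had 0 of 6 genes called and urothelium 1 of 13, Gata3 (3 without mutant female 1 or scaled to the FPKM sum). Alternatives were other pseudocounts, filters, scalings, no trend, a replicate block, the 6 libraries of a genotype alone, leaving out each library and, chosen after seeing the data, adjustment over autosomal genes only and a correction of the log values for GC and length. Some genes counted in the lists are not reported by name here.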

Additional observations from a re-analysis of the deposited data

How the results depend on the processing

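Of the 74 named and called genes, 0 changed sign under any alternative, and between 37 (only the 6 mutant libraries) and 74 (pseudocount 1) stayed called where all 74 had a value. The 1003 mutant calls became 625 with no filter, 378 with the FPKM as deposited, 1833 scaled to the FPKM sum and 203 with only the 6 mutant libraries, and ranged from 413 to 1322 with 1 mutant library left out. The 418 wild type calls became 228 with a filter at 5 FPKM, 235 as deposited and 1180 with only the 6 wild type libraries, and ranged from 152 to 595 with 1 wild type library left out. The 0 calls between genotypes became 1 at a pseudocount of 0.1, 9 with no filter and 1 as deposited, and 0 to 1 with 1 library left out. The cause of these changes was not tested. Same-numbered mutant males and females deviated with correlations of 0.068, -0.229 and -0.102, so the numbers were not taken as pairs. With a replicate block there were 924 mutant, 342 wild type and 0 genotype calls, and 67 of the 74 named genes stayed called.

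The GC and length correction left 756 mutant calls, 620 of them among the 1003, and 65 of the 74 named genes. Before it, the lowest of 5 GC bins had a median of 0.12 with 170 genes higher in males and 33 higher in females, and the highest bin a median of -0.07 with 48 and 144. The mutant libraries were shallower (0.582 to 0.717 of the deepest) than the wild type ones (0.812 to 1), which limits the precision of genes near 1 FPKM.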

Other observations

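Small nucleolar RNA genes, which guide the chemical modification of ribosomal RNA and were left out of the named genes, leaned to the mutant females. Of 89 autosomal snoRNA genes tested 43 were called higher in mutant females and 0 higher in males by limma, with a median of -1.33, beside 3.57% of all autosomal genes higher in females. The mutant libraries of 58 of the 89 did not overlap, with females higher, beside 11.7% of all autosomal genes tested. All snoRNA genes with deposited values, tested or not, summed to 8840 to 10549 scaled FPKM in mutant females and 2775 to 4642 in mutant males. In wild type 0 of the 89 were called, with a median of -0.34, and the sums were 5051 to 5742 in females and 2996 to 6939 in males. The limma test of the difference between the 2 sex differences called 0 of the 89. In it 38 of the 89 had an unadjusted p under 0.05, beside 8.69% of all autosomal genes tested. No single snoRNA gene was thus resolved between genotypes, and the snoRNA genes as a set were not tested. The count of 43 was 26 and 27 without mutant male 1 or 2, 28 without mutant female 3, 26 of 217 with no filter, and 18 after the GC and length correction, at a median of -0.45. Rn7sk, another small RNA, took 13.8% and 14.9% of the FPKM sum in mutant males 1 and 3 and was listed at 0 in the other 4 mutant libraries. The part of small RNA recovery in these differences was not tested. The snoRNA group was chosen after its values were seen.

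Further genes of retinoid handling, also chosen after Aldh1a1 and Aldh1a3 were seen, went both ways. Cyp26a1, which degrades retinoic acid and is induced by it, was at 1.69, 1.81 and 1.23 in mutant males and at 0.153, 0.356 and 0.318 in mutant females (1.42, limma adjusted p = 0.00525). Crabp1, an intracellular binding protein gene for retinoic acid, was at 16.5, 20.7 and 15.5 in mutant males and 71.7, 79.6 and 76.6 in mutant females (-2.09, limma adjusted p = 0.00013). Crabp2 differed by -0.81 (limma adjusted p = 0.032) and was not called without mutant female 1, mutant male 1 or mutant male 3 (adjusted p of up to 0.119). Aldh1a2 and the receptor gene Rarb had values of 0.68 and 0.07 and were not called (limma adjusted p = 0.115 and 0.893).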
